A study of Mus musculus with 8 samples.

Results

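NRF2 targets and glutathione transferases were examined as a set of 42 named genes in bulk liver RNA from 8 female mice. The set was given as a list of gene symbols, and its members were the rows of the deposited count table whose Ensembl ID carries one of those symbols in GENCODE mouse release M21. All 42 were found among the 55335 genes in the table, and all 42 passed the filter on low counts that left 15234 genes tested. Each mouse had been fed ethanol by the chronic-plus-binge model of the NIAAA, in which a period on ethanol liquid diet ends with an ethanol gavage. In 4 mice, numbered 28, 34, 37 and 39, Ripk1 was knocked out in hepatocytes (Ripk1-hepKO), and 4 mice, numbered 29, 32, 40 and 41, were the controls (Ripk1-Con). RIPK1 is a kinase and scaffold protein of death receptor signalling. The sources used here do not give the transgene that drives the deletion, the alleles that the controls carry, the strain or the age. No mouse without ethanol was analysed here, so the comparison is between genotypes under ethanol.

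NRF2, encoded by Nfe2l2, is the transcription factor that induces antioxidant and detoxifying enzymes. In resting cells KEAP1 binds it and hands it to a ubiquitin ligase. Oxidants and electrophiles modify cysteines of KEAP1, NRF2 accumulates, and with a small MAF partner it binds the antioxidant response element in its target genes. Glutathione transferases join the thiol of glutathione to electrophiles, and hepatocytes are among the cells richest in them. In liver these genes are known for the response to ethanol, paracetamol and other toxicants that deplete glutathione.

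The antioxidant response element has the core TGACNNNGC, which reads GCNNNGTCA on the other strand, and these sequences show where proximal promoters of the members hold those letters. RefSeq promoters on GRCm38.p6, from 250 bases before to 50 bases after a start, were matched by symbol to 35 of the 42 members. Hmox1, Gclc, Gsr, Prdx6, Gsta4, Gstt2 and Abcc3 had no entry in the table. Of the 35, 11 (31.4%) held the core on either strand in at least 1 promoter, against 3781 of 27025 genes (13.99%) in the whole table. Some genes have more than 1 promoter, and counted by promoter it was 12 of 49 (24.5%) against 4071 of 32851 (12.4%). Of these matches, 8 before the start are shown 5′ to 3′ on the gene's strand, with the core in capitals.
Prdx1 (chr4:116685452-116685488, plus strand): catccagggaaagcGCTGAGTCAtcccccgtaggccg
Gclm (chr3:122245409-122245445, plus strand): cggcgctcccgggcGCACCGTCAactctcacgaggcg
Txnrd1 (chr10:82859100-82859136, plus strand): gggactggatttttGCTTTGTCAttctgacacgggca
Ugdh (chr5:65435952-65435988, minus strand): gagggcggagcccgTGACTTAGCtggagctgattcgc
Nfe2l2 (chr2:75704881-75704913, minus strand): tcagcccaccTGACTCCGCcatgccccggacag
Mgst1 (chr6:138140457-138140493, plus strand): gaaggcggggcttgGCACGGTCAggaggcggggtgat
Gsta3 (chr1:21240450-21240486, plus strand): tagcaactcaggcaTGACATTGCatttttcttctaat
Abcc2 (chr19:43782196-43782232, plus strand): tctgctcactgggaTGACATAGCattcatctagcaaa
These begin 133, 134, 92, 132, 240, 56, 121 and 98 bases before the start, in the order shown. Gstm7, both promoters of Abcc4 and another position of Ugdh also matched, and in Srxn1 the core lay 28 bases after the start. A match is a description of these letters and not of binding. The 11 genes with the core had a median log2 fold change between the genotypes of 0.12, with 8 above 0, and the 24 without it one of 0.21, with 19 above 0. Sequence outside the window was not searched, so the 24 may hold the core elsewhere. Gsta1, Gsta2 and Osgin1 did not hold the core in this window, and their 100 bases before the start are shown because their fold changes were among the widest of the set.
Gsta1 (chr9:78230569-78230668, plus strand): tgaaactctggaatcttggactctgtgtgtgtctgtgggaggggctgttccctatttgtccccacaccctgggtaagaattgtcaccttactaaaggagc
Gsta2 (chr9:78347146-78347245, minus strand): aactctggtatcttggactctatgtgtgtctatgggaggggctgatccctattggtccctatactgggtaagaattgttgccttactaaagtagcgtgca
Osgin1 (chr8:119437047-119437146, plus strand): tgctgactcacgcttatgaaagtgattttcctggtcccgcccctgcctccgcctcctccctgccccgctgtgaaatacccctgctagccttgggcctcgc
Gsta1 and Gsta2 were 70.5% identical over the 250 bases before their starts and 97.5% identical over the coding sequence.

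Total counts ranged from 28038390 to 67328158 per mouse. Counts were scaled by TMM and expressed as CPM, a gene's count relative to its scaled library size, and a log2 fold change above 0 means a higher level in Ripk1-hepKO. Ripk1 itself stood at 23.1 to 38.1 CPM in Ripk1-hepKO and 27.8 to 53.6 CPM in Ripk1-Con, with overlapping groups, which neither identified nor contradicted a label. Each direction therefore rests on the labels alone. Mouse 28 stood apart, with a mean Spearman correlation of 0.954 to the other 7 libraries against 0.974 to 0.980 for the rest. Hepatocyte markers summed to 105250 to 122530 CPM in Ripk1-hepKO and 117870 to 145530 CPM in Ripk1-Con over the 11 of 12 listed genes in the table, so the tissue carried its defining markers. In bulk tissue, fewer cells of a type and less RNA per cell cannot be told apart.

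No gene of the 42 passed the test between the genotypes, and for each the mice of the genotypes overlapped. In edgeR's quasi-likelihood test 0 of 42 passed an FDR of 0.05, where 0% of the 15234 genes tested did so. By unadjusted p under 0.05 there were 3 members (7.14%), against a background of 6.68% of all genes tested, so the share was near the background. The 3 were Hmox1 and Gsta1, higher in Ripk1-hepKO, and Osgin1, lower. DESeq2 called 0 members too, while 0.237% of genes with an adjusted p were called. At an unadjusted p under 0.05 in DESeq2 there were 5 members, against 1199 of the 15234 genes tested. Limma voom also called 0, with 3 at an unadjusted p under 0.05, against 1009 of the 15234 genes tested. For 0 members did the 4 mice of one genotype all lie above the 4 of the other, where 4.10% of genes tested had such groups. The direction was less even, as 32 of 42 log2 fold changes lay above 0 (76.2%, against 51.8% of genes tested), with a median of 0.18 beside 0.01 over all genes tested. That median was 0.12 without mouse 37 or with sample quality weights in limma voom, and between 0.14 and 0.23 without any other mouse except 34, where it was 0.26. The members are not independent of each other and had been chosen with earlier results known, so these shares are descriptive.

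**Figure D1:**
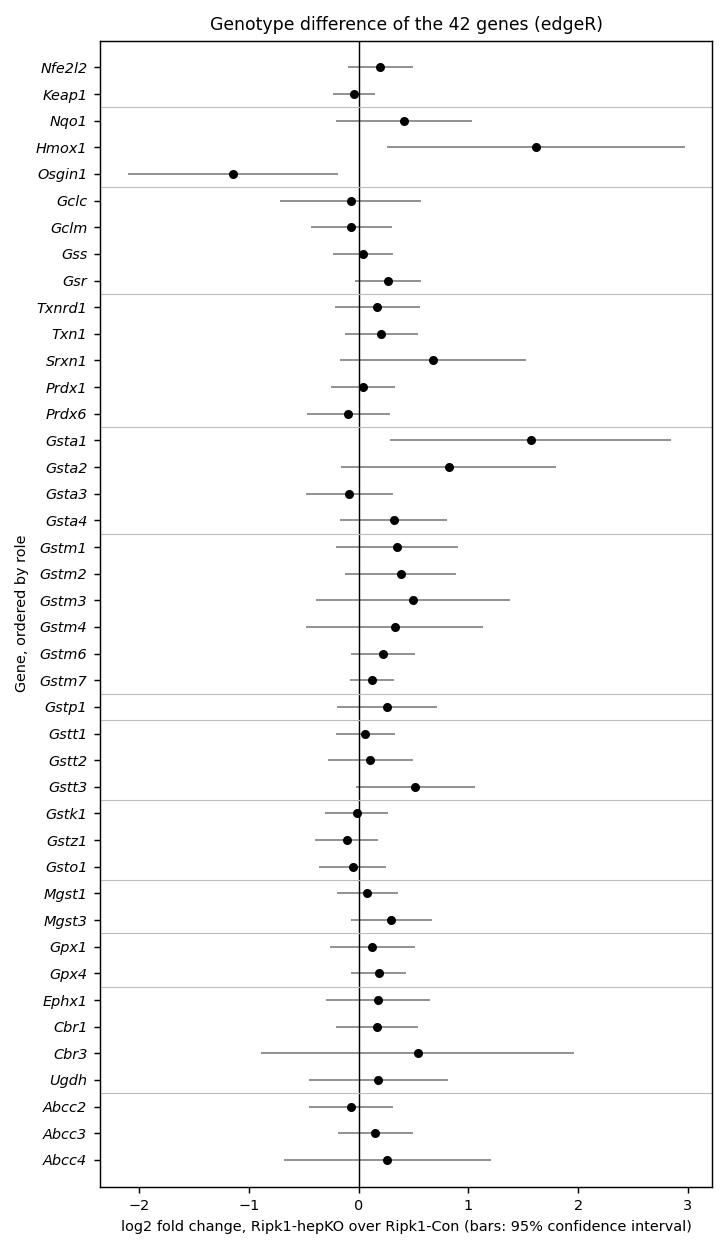
Genotype difference of each gene. The horizontal axis is the log2 fold change, Ripk1-hepKO over Ripk1-Con, with its 95% confidence interval from the edgeR fit (n = 4 mice each), and genes are ordered by role from top to bottom. Most points lie between 0 and 0.5, while Hmox1 at 1.61, Gsta1 at 1.57 and Osgin1 at -1.14 are the genes whose unadjusted interval does not include 0.

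The regulators showed small differences. Nfe2l2, the gene of NRF2 itself (chromosome 2, 75675513 to 75704641, minus strand), stood at 69.2, 72.8, 69.3 and 91.97 CPM in knockout mice 28, 34, 37 and 39, and control mice 29, 32, 40 and 41 held 65.6, 64.6, 76.98 and 57.3 CPM. Mouse 39 was the highest and control mouse 40 the next, so the groups overlapped. The log2 fold change was 0.20 ± 0.13 (SE; edgeR adjusted p = 0.790). Keap1, its inhibitor (chromosome 9, 21229730 to 21239361, minus strand), was the steadiest gene of the set. Its levels were 44.02, 45.7, 48.8 and 49.7 CPM in Ripk1-hepKO and 50.5, 46.6, 48.2 and 48.97 CPM in Ripk1-Con in the same order of mice. The highest mouse was 1.15 times the lowest. The log2 fold change was -0.05 ± 0.09 (SE; edgeR adjusted p = 0.925) and its 95% confidence interval ran from -0.24 to 0.15.

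Hmox1, haem oxygenase 1, which breaks haem down to biliverdin, iron and carbon monoxide (chromosome 8, 75093621 to 75100589, plus strand), had the widest fold change of the set. It stood at 328, 309, 84.6 and 261 CPM in knockout mice 28, 34, 37 and 39, and control mice 29, 32, 40 and 41 held 36.4, 53.9, 187 and 43.9 CPM. Mice 28, 34 and 39 were high and control mice 29, 32 and 41 low, but mouse 37 of Ripk1-hepKO lay below control mouse 40. The log2 fold change was 1.61 ± 0.60 (SE; edgeR adjusted p = 0.742; DESeq2 adjusted p = 0.519), and without mouse 40 it was 2.46. The groups then did not overlap, since mouse 40 was the only control to reach the Ripk1-hepKO range. In that fit 9.63% of genes tested had such groups. Kupffer cells and other macrophages also carry Hmox1, and the 10 Kupffer cell markers summed to 253 to 389 CPM in Ripk1-hepKO and 98.6 to 418 CPM in Ripk1-Con. Mouse 40 had the lowest Kupffer sum of the 8 mice and the highest Hmox1 of the controls, and the part of these cells in the difference was not tested.

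Osgin1, which encodes the oxidative stress-induced growth inhibitor 1 (chromosome 8, 119434124 to 119446256, plus strand), lay the other way. It stood at 71.1, 93.2, 152 and 106 CPM in Ripk1-hepKO and 319, 272, 71.6 and 271 CPM in Ripk1-Con, in the same order of mice. The log2 fold change was -1.14 ± 0.42 (SE; edgeR adjusted p = 0.742; DESeq2 adjusted p = 0.307). Control mouse 40 again lay with the Ripk1-hepKO mice, and without it the log2 fold change was -1.44. It was again the only control to reach the Ripk1-hepKO range, so the groups did not overlap without it, against 9.63% of genes tested. The same 5 mice, all of Ripk1-hepKO and control mouse 40, were the 5 highest for Hmox1 and the 5 lowest for Osgin1, a likeness noticed after the values were seen.

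Nqo1, the quinone reductase often used as a readout of NRF2 (chromosome 8, 107388225 to 107403206, minus strand), followed neither of the pair. Its levels were 18.97, 21.6, 35.4 and 34.6 CPM in Ripk1-hepKO and 17.2, 14.5, 21.4 and 30.02 CPM in Ripk1-Con. Mice 37, 39 and 41 were the highest, from both genotypes, and the log2 fold change was 0.41 ± 0.28 (SE; edgeR adjusted p = 0.790).

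**Figure D2:**
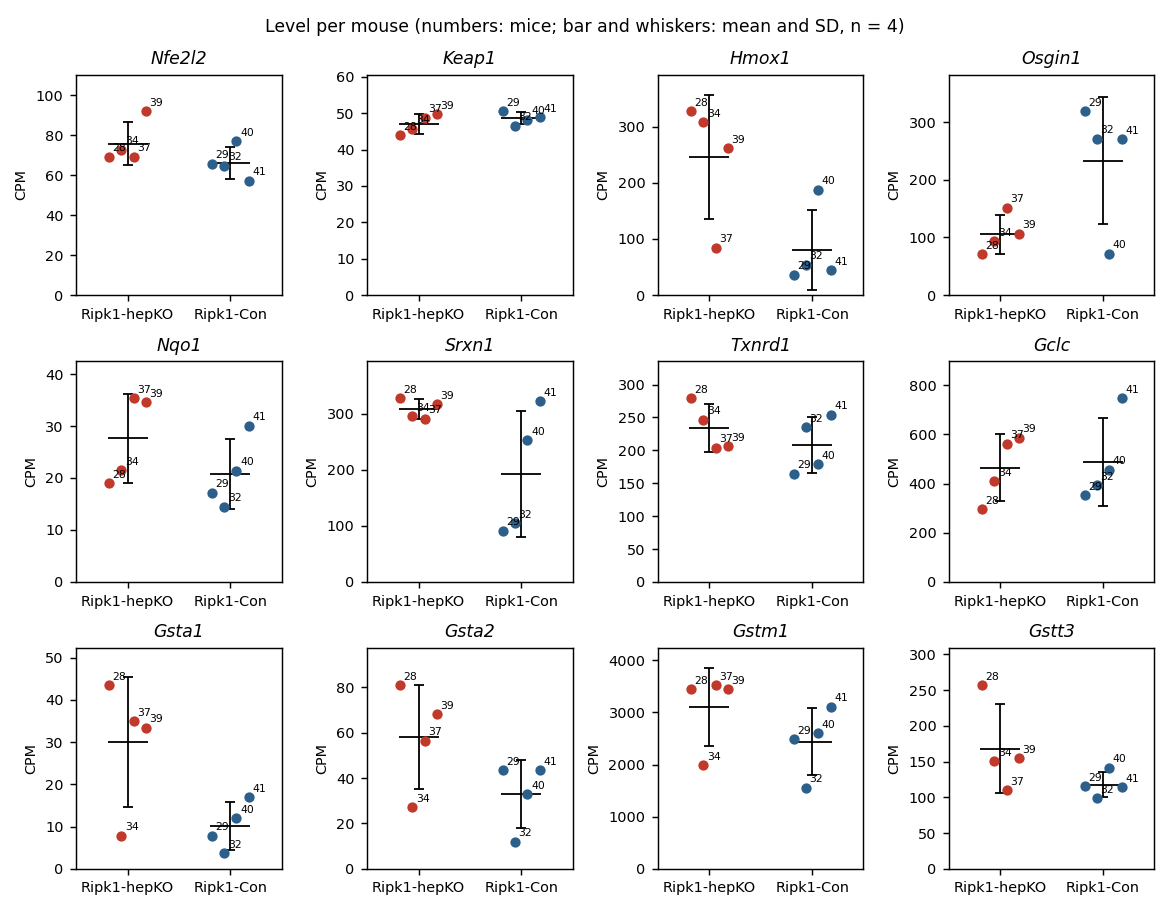
Levels of 12 of the genes in each mouse. The vertical axis of each panel is CPM from 0, red points are Ripk1-hepKO mice and blue points Ripk1-Con mice with their numbers beside them, and the bar and whiskers are the mean and SD of 4 mice. Control mouse 40 stands with the Ripk1-hepKO mice for Hmox1 and Osgin1, and control mice 29 and 32 stand below the other 6 for Srxn1.

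Glutathione synthesis and recycling did not move as a unit. Gclc, the catalytic subunit of glutamate-cysteine ligase, which sets the rate of glutathione synthesis (chromosome 9, 77754535 to 77794485, plus strand), stood at 296, 409, 562 and 587 CPM in Ripk1-hepKO and 353, 394, 456 and 748 CPM in Ripk1-Con. The highest value was in control mouse 41 and the lowest in Ripk1-hepKO mouse 28. Its log2 fold change was -0.07 ± 0.28 (SE; edgeR adjusted p = 0.970) and the 95% confidence interval ran from -0.71 to 0.57. Gclm, the modifier subunit, averaged 191 ± 40.8 against 199.7 ± 19.1 CPM (SD, n = 4 each). Gss, glutathione synthetase, averaged 96.4 ± 9.25 against 94.1 ± 11.9 CPM. Gsr, the reductase that returns oxidised glutathione to its thiol form, had the smallest p of the 4, at 76.1 ± 5.66 against 63.2 ± 11.3 CPM. Its log2 fold change of 0.27 ± 0.13 (SE) did not pass (edgeR adjusted p = 0.762). In Gsr the 4 Ripk1-hepKO mice all lay above control mice 29, 32 and 40, and control mouse 41 lay above 3 of them.

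Of the thioredoxin genes, Srxn1 differed most in the spread of its controls. Srxn1 encodes sulfiredoxin, which repairs overoxidised peroxiredoxins (chromosome 2, 152105516 to 152111376, plus strand). It stood at 328, 295, 291 and 317 CPM in Ripk1-hepKO and 91.4, 105, 252 and 322 CPM in Ripk1-Con. Control mice 29 and 32 were far below the remaining 6 mice, whereas control mouse 41 lay within the Ripk1-hepKO range. Without mouse 29 the log2 fold change was 0.45 and without mouse 41 it was 1.04. The SD was 17.5 CPM in Ripk1-hepKO and 113 CPM in Ripk1-Con, and the log2 fold change was 0.68 ± 0.37 (SE; edgeR adjusted p = 0.770). Txnrd1, cytosolic thioredoxin reductase (chromosome 10, 82833951 to 82897712, plus strand), stood at 279, 247, 204 and 206 CPM in Ripk1-hepKO and 165, 235, 179 and 254 CPM in Ripk1-Con. Its groups were interleaved and differed by 0.17 ± 0.17 (SE) on the log2 scale (edgeR adjusted p = 0.859). Txn1, thioredoxin, averaged 89.98 ± 15.4 against 77.97 ± 10.1 CPM. The peroxidase genes Prdx1 and Prdx6 averaged 779 ± 42.4 against 759.8 ± 106 CPM and 309.6 ± 71.2 against 330.3 ± 27.3 CPM.

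Alpha class transferases split between the low-abundance pair Gsta1 and Gsta2 and the abundant Gsta3. Gsta1 (chromosome 9, 78230656 to 78242684, plus strand) stood at 43.5, 7.81, 34.99 and 33.4 CPM in Ripk1-hepKO and 7.82, 3.70, 11.96 and 17.00 CPM in Ripk1-Con. Mice 28, 37 and 39 were above every control, and Ripk1-hepKO mouse 34 lay among the controls. The log2 fold change was 1.57 ± 0.56 (SE; edgeR adjusted p = 0.742; DESeq2 adjusted p = 0.258). Gsta2 (chromosome 9, 78331018 to 78355788, minus strand) had the same mice at the top, at 80.99, 27.04, 56.4 and 68.00 CPM in Ripk1-hepKO and 43.5, 11.9, 32.98 and 43.4 CPM in Ripk1-Con. Its log2 fold change was 0.82 ± 0.43 (SE; edgeR adjusted p = 0.769). Control mouse 32 was the lowest of the 8 for both genes. Gsta3, the main alpha form here, averaged 957 ± 237 against 1016 ± 56.00 CPM, and Gsta4, which prefers lipid aldehydes such as hydroxynonenal, 71.3 ± 21.98 against 57.1 ± 7.59 CPM.

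Reads of Gsta1 and Gsta2 can be hard to separate. The 90 bases shown were picked as the gap-free stretch of the 2 coding sequences with the most differing bases. The stretch is therefore where the genes differ most over that length, and not typical of the alignment. They run from coding base 578 to 667 in both genes, and capitals mark the 6 bases that differ.
Gsta1: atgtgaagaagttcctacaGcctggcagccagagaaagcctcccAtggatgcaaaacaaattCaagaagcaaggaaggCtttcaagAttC
Gsta2: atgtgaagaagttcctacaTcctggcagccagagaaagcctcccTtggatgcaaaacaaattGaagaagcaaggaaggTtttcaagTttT
Over the whole coding alignment 14 bases differed and 3 columns held gaps. Of the 150-base windows of the Gsta1 transcript, 73.7% occurred unchanged in a transcript of Gsta2, Gm3776 or Gm10639, and for Gsta2 the share was 26.8%. Gm3776 and Gm10639, named for that reason, stood at 35.8, 7.14, 31.9, 27.3, 6.28, 2.91, 9.66 and 13.7 CPM and 5.46, 1.70, 3.99, 4.13, 1.60, 0.598, 2.09 and 2.78 CPM in mice 28, 34, 37, 39, 29, 32, 40 and 41. A sum over copies does not depend on how reads are split among the copies in it, but it does not recover reads shared with other genes or discarded in counting. With Gsta1 and Gsta2 summed before the fit, Ripk1-hepKO averaged 88.0 ± 38.1 CPM and Ripk1-Con 43.1 ± 19.4 CPM (SD, n = 4 each), and the log2 fold change was 1.03 ± 0.46 (SE; edgeR adjusted p = 0.749). With the other 2 copies added the log2 fold change was 1.15 ± 0.47 (SE; edgeR adjusted p = 0.744). With all 4 Gsta members summed it was 0.00 ± 0.17 (SE; edgeR adjusted p = 0.999), since Gsta3 makes up most of that sum.

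All 6 mu class members lay above 0, with log2 fold changes from 0.12 to 0.50 and a median of 0.34, and 0 of 6 passed. Control mouse 32 bears on that size, since without it the 6 ran from 0.13 to 0.22. They lie in one cluster on chromosome 3, from 107926334 (start of Gstm7) to 108044894 (end of Gstm4), and are transcribed from the minus strand. Gstm1, the most abundant, stood at 3448, 1982, 3526 and 3449.5 CPM in Ripk1-hepKO and 2485, 1557, 2597 and 3109.6 CPM in Ripk1-Con. Mouse 34 was the low one of its group and mouse 32 the low one of the controls. Gstm3 stood at 386, 305, 397 and 607 CPM in Ripk1-hepKO and 254, 111, 394 and 444 CPM in Ripk1-Con, and mouse 32 was again the lowest of all. Gstm2 averaged 129 ± 24.98 against 98.8 ± 28.7 CPM, Gstm4 89.7 ± 32.1 against 71.4 ± 32.6 CPM, and Gstm6 50.5 ± 5.08 against 43.4 ± 6.25 CPM. Gstm7 varied least, at 35.5 ± 2.58 against 32.7 ± 1.02 CPM. Summed over the 7 Gstm genes in the annotation, Gstm5 included, the log2 fold change was 0.36 ± 0.25 (SE; edgeR adjusted p = 0.795).

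The other transferases did not pass the test either. Gstp1, of the pi class (chromosome 19, 4035407 to 4037985, minus strand), averaged 532 ± 119 against 445 ± 99.2 CPM and differed by 0.26 ± 0.20 (SE) on the log2 scale (edgeR adjusted p = 0.816). Gstp1 shares 41.8% of its 150-base windows with Gstp2 or a pseudogene, and summed with Gstp2 and Gstp3 its log2 fold change was 0.26 ± 0.20 (SE; edgeR adjusted p = 0.815). In the theta class, Gstt3 (chromosome 10, 75774115 to 75781414, minus strand) stood at 257, 151, 109.8 and 155 CPM in Ripk1-hepKO and 116, 99.00, 141 and 114 CPM in Ripk1-Con. Mouse 28 was far above the rest, and the log2 fold change was 0.52 ± 0.24 (SE) with it (edgeR adjusted p = 0.750) and 0.24 without it. Of the 150-base windows of Gstt3, 21.7% also occurred in Gm20441. Gstt1 averaged 201 ± 28.1 against 193 ± 9.34 CPM and Gstt2 44.6 ± 8.88 against 41.5 ± 6.75 CPM. The mitochondrial and peroxisomal Gstk1, Gstz1, which also acts in tyrosine breakdown, and Gsto1 had log2 fold changes of -0.02, -0.11 and -0.06. Gstz1 averaged 505 ± 71.4 against 545 ± 28.1 CPM, Gstk1 57.5 ± 1.28 against 58.1 ± 10.1 CPM and Gsto1 63.96 ± 8.64 against 66.5 ± 9.68 CPM. The microsomal Mgst1 averaged 1658 ± 164 against 1571 ± 135 CPM and Mgst3 19.1 ± 3.57 against 15.5 ± 2.30 CPM.

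Peroxidases, carbonyl and epoxide enzymes and export pumps had 8 of 9 log2 fold changes above 0, and 0 of 9 passed. Gpx1, a cytosolic glutathione peroxidase, averaged 906 ± 185 against 832 ± 124 CPM. Gpx4, which reduces lipid hydroperoxides in membranes and restrains ferroptosis, averaged 186 ± 22.6 against 164 ± 6.25 CPM. Ephx1, microsomal epoxide hydrolase, averaged 672 ± 166 against 595 ± 121 CPM. Cbr1, a carbonyl reductase, stood at 112, 88.1, 141 and 107 CPM in Ripk1-hepKO and 83.5, 93.5, 101 and 122 CPM in Ripk1-Con, and differed by 0.16 ± 0.17 (SE) on the log2 scale. Its relative Cbr3 was the least abundant member, and stood at 2.68, 3.60, 9.39 and 10.9 CPM in Ripk1-hepKO and 3.08, 1.21, 5.15 and 8.95 CPM in Ripk1-Con. Mice 37, 39 and 41 were the highest for Cbr3 and the genotypes were interleaved. Ugdh, which makes the UDP-glucuronic acid used in glucuronidation, averaged 275 ± 78.6 against 243 ± 82.4 CPM. Abcc2, the canalicular pump for glutathione conjugates, averaged 617 ± 132 against 649 ± 70.6 CPM and was the one gene of these 9 below 0. The basolateral pumps Abcc3 and Abcc4 averaged 319 ± 48.5 against 287 ± 39.8 CPM and 70.9 ± 34.1 against 59.1 ± 28.1 CPM.

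Some of the widest spread between mice crossed the genotypes. Abcc4 stood at 45.2, 38.1, 105 and 95.6 CPM in knockout mice 28, 34, 37 and 39, and control mice 29, 32, 40 and 41 held 36.7, 37.3, 95.6 and 66.95 CPM. Its 4 lowest mice were 28, 29, 32 and 34, which are 2 of each genotype. The same 4 mice were the lowest for 8 of 42 members (19.0%), namely Gclc, Gss, Gstm3, Gstm4, Ephx1, Cbr3, Ugdh and Abcc4, against 1.77% of all genes tested. They were the 4 highest for 0 of 42 members, against 2.25% of genes tested. Of the 104 other pathway genes tested 11 (10.6%) had these 4 as the lowest, among them Aox1, Me1, Tkt and Pir. This count was made after the values were seen, and the labels give no batch. These are also the 4 lowest mouse numbers, and the sources used here do not say what the numbers stand for. Gclc, for instance, ranged from 296 to 587 CPM within Ripk1-hepKO, while the genotypes averaged 464 ± 136 CPM and 488 ± 179 CPM (SD, n = 4 each).

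**Figure D3:**
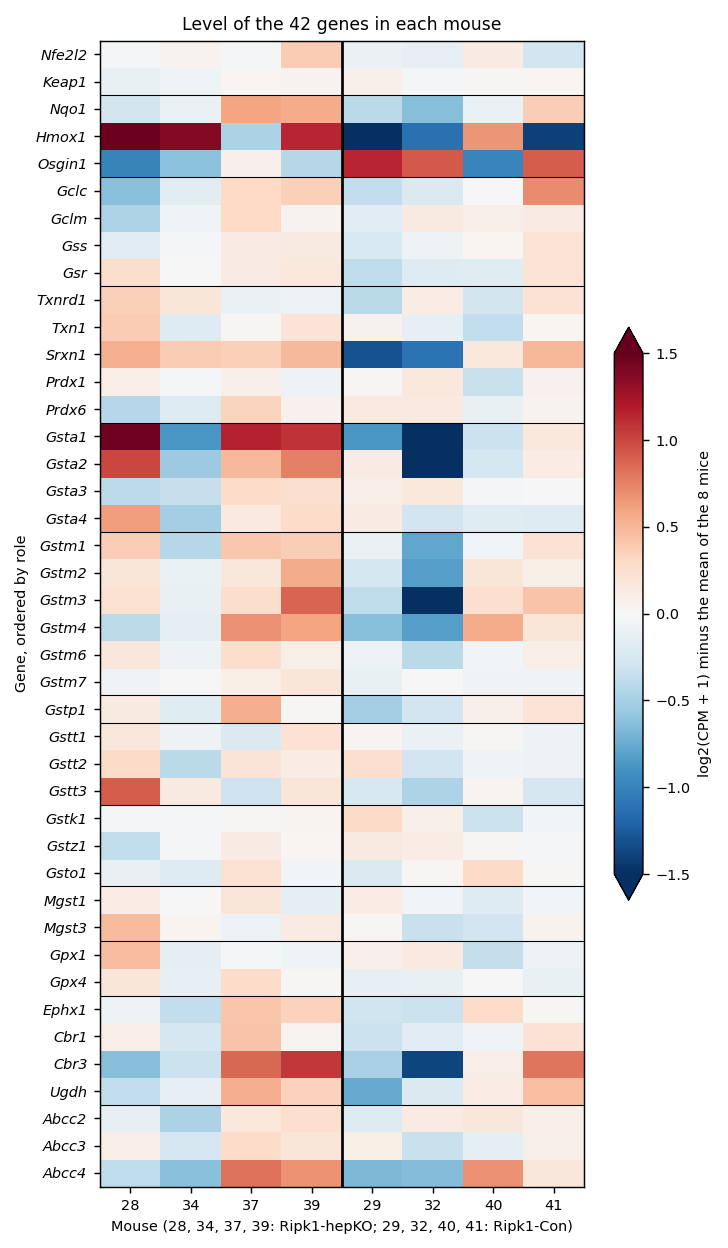
Level of each gene in each mouse relative to the mean of the 8 mice. Rows are genes ordered by role with lines between roles, columns are mice with Ripk1-hepKO left of the heavy line and Ripk1-Con right of it, and colour is log2(CPM + 1) minus the row mean, limited at 1.5 either way. Hmox1 and Osgin1 have opposite colours in nearly every mouse, and mice 28, 34, 29 and 32 are blue for Gclc, Gstm4, Cbr3, Ugdh and Abcc4 on both sides.

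The extremes of the members were also uneven over the mice. A Ripk1-hepKO mouse held the highest value for 34 of 42 members (81.0%), against 54.7% of genes tested, and a control held the lowest for 29 of 42 (69.0%), against 44.98%. Mouse 37 was highest for 15 members (35.7%, against 10.4% of genes tested) and mouse 28 for 12 (28.6%, against 26.3%). Mouse 34, also Ripk1-hepKO, was highest for 0 members, against 8.69%, and lowest for 5 (11.9%, against 9.40%). Among the controls, mouse 32 was lowest for 12 members (28.6%, against 12.5%) and mouse 29 for 11 (26.2%, against 9.56%). Mouse 28 was lowest for 7 members (16.7%, against 26.8%). The shares of mice 37, 32 and 29 lay above those over all genes, while those of mouse 28 at the top and mouse 34 at the bottom lay near them.

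Levels between genes were compared per kilobase of exon (RPKM, CPM divided by the summed exon length of the gene in kilobases). Gstm1 was the highest, with a mean of 1880.0 RPKM over 8 mice and a range of 1057 to 2394, above every mouse of any other member. Mgst1 followed at 802 (range 701 to 907) and Gpx1 at 603 (463 to 819.7), and the ranges of Mgst1 and Gpx1 overlapped. Ephx1 and Gstp1 came next at 325 and 315, with ranges that overlapped widely. Keap1, Abcc4 and Cbr3 were the lowest, at 10.2, 10.2 and 4.48 RPKM. Nfe2l2 stood at 18.7 RPKM, and Hmox1 and Gsta1, which had the highest fold changes, at 93.1 and 20.9. Gsta1 had the widest ratio of highest to lowest mouse, at 11.8 times, followed by Cbr3 at 9.01 times and Hmox1 at 8.999 times.

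**Figure D4:**
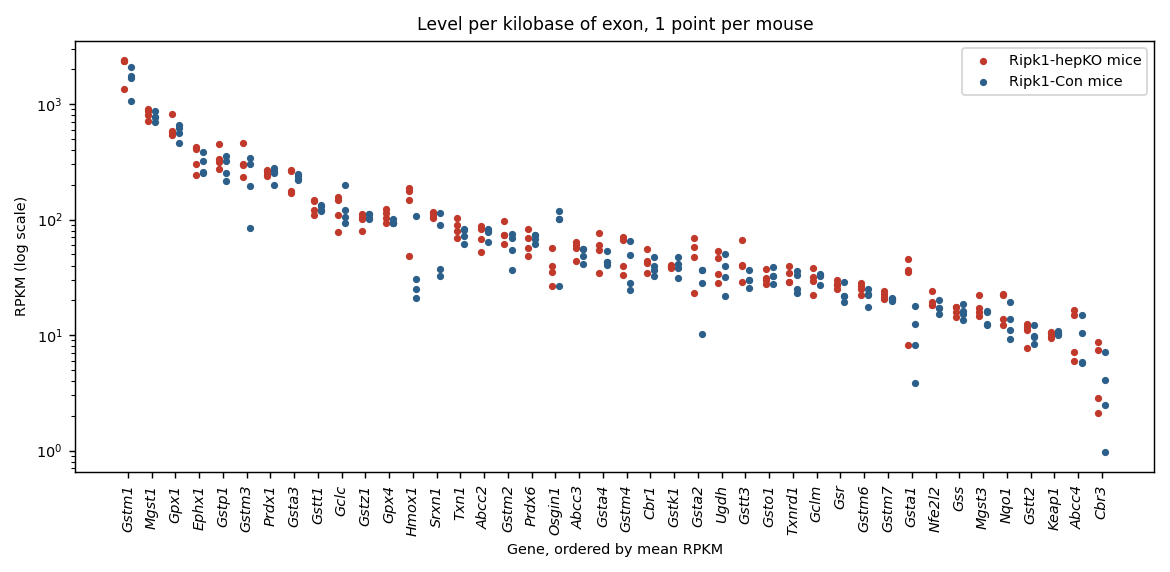
Level per kilobase of exon for each gene. The vertical axis is RPKM on a log scale, genes run from the highest to the lowest mean, and each point is 1 mouse, red for Ripk1-hepKO and blue for Ripk1-Con. The genes span from 1880.0 RPKM for Gstm1 to 4.48 RPKM for Cbr3, and the points of the genotypes overlap in every gene.

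The rest of the pathway was read from a list of 112 genes, of which 104 were tested and 0 passed in edgeR. By edgeR's unadjusted p under 0.05 there were 5 (4.81%), against 6.68% of all genes tested. DESeq2 called 0 of them with 6 at an unadjusted p under 0.05, against 1199 of all 15234 genes tested. Limma voom called 0 with 3 at such a p, against 1009 of 15234. The median log2 fold change of the 104 in edgeR was 0.02, with 58 above 0 and 46 below. Values here are mean ± SD CPM of 4 Ripk1-hepKO mice against 4 Ripk1-Con mice, for up to 3 genes of smallest p in each list among those with a mean of at least 1 CPM. Of partners and repressors of NRF2, 9 of 16 lay above 0. Among these, Nfe2l1, a related transcription factor, stood at 130.3 ± 10.5 against 158 ± 17.8 CPM, Gsk3b, a kinase that marks NRF2 for degradation, at 40.3 ± 9.50 against 31.4 ± 2.89 CPM, and Dpp3, which can compete for KEAP1, at 39.8 ± 1.97 against 36.6 ± 2.22 CPM. Of cystine uptake and glutathione turnover, 6 of 16 lay above 0, with the glutaredoxin Glrx at 57.8 ± 10.7 against 45.2 ± 4.34 CPM, the ectopeptidase Anpep at 141 ± 14.9 against 172 ± 17.2 CPM and the glyoxalase Glo1 at 137 ± 14.9 against 167 ± 28.5 CPM. Slc7a11, the cystine carrier, lay under that level and had the smallest p of its list, at 0.663 ± 0.496 against 0.168 ± 0.0939 CPM, with overlapping groups and a log2 fold change of 2.02 ± 0.76 (SE; unadjusted p = 0.0262 and adjusted p = 0.742 in edgeR's test across all genes). Of thioredoxins and peroxiredoxins outside the 42, 7 of 13 lay above 0, with mitochondrial thioredoxin reductase Txnrd2 at 17.03 ± 2.62 against 19.4 ± 1.23 CPM and the sestrins Sesn3 and Sesn2 at 15.8 ± 4.09 against 19.7 ± 4.65 CPM and 13.1 ± 8.31 against 9.82 ± 0.328 CPM. Of NADPH supply, 5 of 8 lay above 0, with G6pdx and Pgd of the pentose phosphate pathway at 6.10 ± 3.45 against 4.64 ± 1.25 CPM and 83.3 ± 33.6 against 61.99 ± 30.4 CPM and the dehydrogenase Idh1 at 265 ± 41.3 against 291 ± 36.3 CPM.

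Iron and haem genes had 5 of 7 above 0, with ferrochelatase (Fech) at 111 ± 10.7 against 129 ± 22.6 CPM, ferritin light chain (Ftl1) at 2798 ± 435 against 2507 ± 224 CPM and biliverdin reductase B (Blvrb) at 89.4 ± 24.5 against 79.02 ± 9.64 CPM. All 6 transferases outside the 42 that were tested lay above 0 and 0 passed, with Gstp2 at 99.6 ± 16.9 against 81.8 ± 19.1 CPM, Gstm5 at 7.83 ± 0.215 against 7.05 ± 0.858 CPM and Ptges at 2.02 ± 1.10 against 1.379 ± 1.19 CPM. The other phase II enzymes were even, with 15 of 31 above 0. Among these the pump Abcc1 stood at 3.40 ± 1.10 against 2.25 ± 0.288 CPM, the fatty aldehyde dehydrogenase Aldh3a2 at 299 ± 83.04 against 403 ± 54.8 CPM and the aldo-keto reductase Akr1b8 at 4.12 ± 2.92 against 1.98 ± 0.707 CPM. Of dismutases and other peroxidases, 5 of 7 lay above 0, with mitochondrial Sod2 at 204 ± 98.6 against 144 ± 6.65 CPM, catalase (Cat) at 1347 ± 254 against 1459 ± 142 CPM and cytosolic Sod1 at 364 ± 26.4 against 385 ± 33.9 CPM.

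Targets of other receptors that control some of the same enzymes were counted beside them. Of aryl hydrocarbon receptor targets, which include Nqo1, 6 of 7 tested were above 0 (median 0.39 on the log2 scale), and 0 passed. The feedback repressor Tiparp stood at 15.7 ± 9.64 against 9.44 ± 1.57 CPM and Cyp1a2 at 694 ± 213 against 529.5 ± 61.96 CPM. Cyp1b1, also under 1 CPM on average, had the smallest p of its list, at 0.979 ± 0.198 against 0.495 ± 0.116 CPM. Its groups did not overlap, which held for 1 of the 7 tested in this list, against 4.10% of all genes tested. Its log2 fold change was 0.99 ± 0.30 (SE; unadjusted p = 0.00903 and adjusted p = 0.742 in edgeR's test across all genes). Of CAR and PXR targets, 6 of 14 lay above 0 with a median of -0.14, and 0 passed. Within these Gadd45b stood at 4.03 ± 1.27 against 7.21 ± 1.91 CPM, Cyp2b9 at 589 ± 98.00 against 771 ± 113 CPM and Por, the reductase that feeds cytochromes P450, at 682 ± 148 against 523 ± 53.02 CPM. Pericentral hepatocyte genes had 4 of 15 above 0 and a median of -0.11, with Cyp2e1, the ethanol-oxidising cytochrome, at 3086 ± 897 against 4122 ± 663 CPM and Cyp2c29 at 3007 ± 548 against 2456 ± 371 CPM. Periportal genes had 6 of 13 above 0 and a median of 0.00, with Sds at 138 ± 84.97 against 88.8 ± 17.2 CPM, Cdh1 at 14.9 ± 8.09 against 11.6 ± 1.68 CPM and Cyp2f2 at 415 ± 74.2 against 464 ± 39.9 CPM.

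The summed markers of each cell type overlapped between the genotypes, though most single markers lay to one side. Of the 11 hepatocyte markers, 2 (18.2%) had groups that did not overlap, against 4.10% of genes tested, and none passed the FDR in edgeR. Alb, albumin, stood at 48465 to 68917 CPM in Ripk1-hepKO and 74428 to 90592 CPM in Ripk1-Con. Ttr, transthyretin, stood at 2354 to 2683 CPM against 2809 to 3271 CPM, so both were lower in every Ripk1-hepKO mouse. Log2 fold changes lay above 0 for 11 of 11 stellate, 7 of 7 neutrophil, 9 of 10 Kupffer and 9 of 10 monocyte and macrophage markers tested, and below 0 for 10 of 11 hepatocyte and 5 of 5 erythroid markers. The neutrophil sum was 10.4 to 51.7 CPM in Ripk1-hepKO and 3.85 to 34.4 CPM in Ripk1-Con, and the monocyte and macrophage sum 76.1 to 190.1 against 38.99 to 134 CPM. Stellate cell markers summed to 354 to 490 against 299.5 to 363 CPM, endothelial markers to 194 to 301 against 146 to 264 CPM, and cholangiocyte markers to 15.5 to 63.0 against 13.5 to 34.7 CPM. Most of the cholangiocyte sum was Spp1 (53.7 of 63.0 CPM in mouse 28), which is also in the monocyte and macrophage list, so these 2 sums share a gene. T and NK cell markers summed to 3.12 to 4.53 against 2.39 to 3.82 CPM and B cell markers to 2.26 to 6.16 against 2.46 to 5.73 CPM. Erythroid markers summed to 190.0 to 515 against 254 to 635 CPM. Mouse 40 was the lowest of the 8 for the Kupffer, monocyte, neutrophil, stellate, cholangiocyte and T and NK cell lists, and mouse 28 the highest for the monocyte, neutrophil, stellate, cholangiocyte and B cell lists. Of the 4 adipose markers, Plin1 and Lep were at 0 in all mice and Adipoq reached at most 0.171 CPM. The fourth, Cidec, a lipid droplet gene that is not particular to adipose tissue, stood at 107.5 CPM in mouse 28, 51.7 CPM in mouse 40 and 7.76 to 16.2 CPM in the other 6. Their part in the values above was not tested.

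Single mice set whether the groups of a gene overlapped. Without mouse 34, Gsta1, Gsta2, Gsta4, Gstm1, Gpx4 and Abcc3 were higher in all 3 remaining Ripk1-hepKO mice than in all controls, against 6.65% of genes tested with such groups. Without mouse 40 this held for Nfe2l2, Hmox1 and, in the lower direction, Osgin1, against 9.63%. Without mouse 37 it held for Hmox1 and Gstt3 (9.08%), without mouse 41 for Gsr and Srxn1 (6.50%), and without mouse 28 or 32 for Gstm7 (6.49% and 6.61%). Without mouse 29 or 39 it held for 0 members, against 6.18% and 7.69%. In none of these fits did a member pass the FDR in edgeR. Members at an unadjusted p under 0.05 numbered 0 without mouse 28 or 29, 1 without mouse 32 and 3 without mouse 39. They numbered 4 without mouse 34, 37, 40 or 41. The background moved too, with 891 of 15500 genes at such a p without mouse 28, 633 of 15535 without 29 and 760 of 15548 without 32. It was 1131 of 15427 without mouse 39 and 941 of 15544 without 34. Without mouse 37 it was 1409 of 15537, without 40 1183 of 15521 and without 41 742 of 15498.

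**Figure D5:**
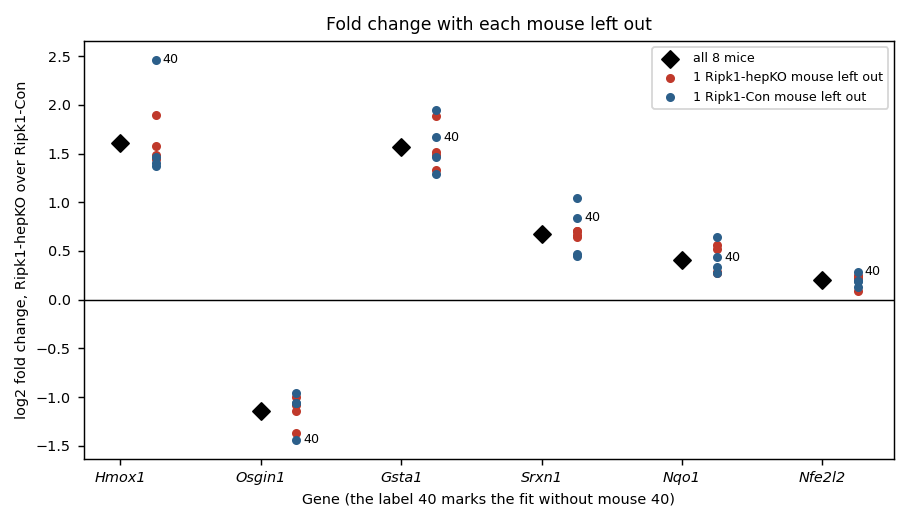
Fold change of 6 genes with each mouse left out. The vertical axis is the log2 fold change, Ripk1-hepKO over Ripk1-Con, black diamonds are the fit of all 8 mice, and coloured points are fits without 1 mouse, with the fit without mouse 40 marked. All points of a gene keep the sign of its diamond, and Hmox1 runs from 1.37 to 2.46.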

How the data were processed

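Polyadenylated liver RNA of 8 female mice was made into strand-specific libraries and sequenced in paired 150-base reads, per the labels' protocols. The authors deposited a table of raw gene counts (whole numbers per Ensembl gene, not normalised). In no stated role, DESeq2 1.38.1, StringTie 2.2.1, FastQC 0.11.5, STAR 2.5.2b and the build GRCm38.p6 are listed, per the submitters' processing notes. The sources used here do not give the counting tool, the annotation release or the strand setting, so how reads of near-identical copies were split is unknown. Gene symbols came from GENCODE mouse release M21, which matched all but 181 of 55335 IDs, and no column of per-sample values was left unused. The labels call the mice independent biological replicates, and their numbers are not shared between genotypes. No paired analysis was made because the labels do not match any mouse of one genotype to a mouse of the other.

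Genes were filtered with filterByExpr, scaled by TMM and tested with edgeR 4.0.16 (R 4.3.3; quasi-likelihood test, robust, genotype as the one term), with Benjamini-Hochberg adjustment over all 15234 genes tested and an FDR of 0.05. DESeq2 1.42.0 and limma 3.58.1 (voom) were alternatives, beside other scalings, filters, summed copies and each mouse left out. The script was tested on simulated data with known changes put into well-counted genes. In these data edgeR called 14% of 1.5-fold, 44% of 2-fold, 94% of 4-fold and 100% of 8-fold changes, with 4 false calls. Total counts of 28038390 to 67328158 left every member with at least 75 reads in each library (the least was in Cbr3).

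The members, the lists and the leaving out of mice 28 and 40 together were chosen with earlier results of these data known. By rule, values in every mouse were given for Nfe2l2, Keap1, Osgin1, Nqo1, Hmox1, Gclc, Txnrd1, Srxn1, Gsta1 and any member at an unadjusted p under 0.05, group means for the member of smallest p in each role, and up to 3 genes of smallest p with a mean of at least 1 CPM in each other list. Gsta2, Gstm1, Gstm3, Gstt3, Cbr1, Cbr3 and Abcc4 were added for values in every mouse after their values were seen, as were Slc7a11, Cyp1b1, Alb, Ttr and Cidec and the sum with Gm3776 and Gm10639. Promoter sequences came from RefSeq on GRCm38.p6 and coding sequences from GENCODE. A planned comparison of protein sequences was replaced by one of coding sequences.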

Additional observations from a re-analysis of the deposited data

Results flagged for a closer look

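In 6 of the 84 groups of 4 mice, which are 42 genes in 2 genotypes, 1 mouse stood far from the other 3 of its group by Dixon's criterion, and chance gives about 1 in 20 groups. Nfe2l2 was highest in Ripk1-hepKO mouse 39 at 92.0 CPM, where the others held 69.2 to 72.8. Hmox1 was highest among the controls in mouse 40 at 187 CPM, where the others held 36.4 to 53.9. Gclm was lowest among the controls in mouse 29 at 171 CPM, where the others held 206 to 211. Gstm1 was lowest in Ripk1-hepKO mouse 34 at 1982 CPM, where the others held 3448 to 3526. Gpx1 was highest in Ripk1-hepKO mouse 28 at 1181 CPM, where the others held 779.5 to 848. Gpx4 was highest among the controls in mouse 40 at 174 CPM, where the others held 160.1 to 162.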

How the results depend on the processing

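No member passed the FDR under any setting tried, and the lowest adjusted p was 0.258 (Gsta1, DESeq2). DESeq2's Wald test called 36 genes in the whole table where edgeR called 0. With 1 mouse left out, members with groups that do not overlap numbered 0 to 6, where 6.18% to 9.63% of genes tested had such groups. Without mice 28 and 40 together they numbered 4 of 42, against 15.6% of genes tested. The direction held in every setting for 31 of 42 members, 28 higher and 3 lower in Ripk1-hepKO (Gstz1, Keap1 and Osgin1). Some of these kept their sign only at values near 0. Gstt1 was at 0.00023 without mouse 39, Ugdh at 0.0022 without mouse 29 and Abcc4 at 0.014 without mouse 37. With all Gsta genes summed, the rows of Gsta1, Gsta2 and Gsta4 were at 0.00052. The share of all genes tested that kept their direction was not counted. The log2 fold changes that changed sign were small. Without mice 28 and 40 together they were 0.0014 for Abcc2, 0.060 for Gclc, 0.072 for Gclm, -0.12 for Gpx1, 0.068 for Gsto1 and -0.084 for Prdx1. With sample quality weights in voom they were 0.0057 for Gclm, -0.0094 for Gpx1, -0.034 for Gstt2 and -0.0093 for Prdx1. Scaled by library size alone, Gstk1 was at 0.027, and with all Gsta genes summed the row of Gsta3 was at 0.00052. With 1 mouse left out the range was -0.17 to 0.058 for Abcc2, -0.20 to 0.21 for Gclc, -0.19 to 0.058 for Gclm, -0.029 to 0.20 for Gpx1, -0.031 to 0.11 for Gss, -0.20 to 0.019 for Gsta3, -0.11 to 0.086 for Gstk1, -0.15 to 0.048 for Gsto1, -0.049 to 0.10 for Prdx1 and -0.23 to 0.020 for Prdx6. The cause was not tested. The spread among 4 mice a genotype limits which differences could be detected. In the simulated data 14% of 1.5-fold and 44% of 2-fold changes were called.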
